A study of Ipomoea batatas with 12 samples.

Results

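In sweetpotato (Ipomoea batatas) storage roots, 98 of 225111 listed genes were nearly without counts in the flesh of the wild-type line and had counts in every flesh library of a natural mutant of that line. They were chosen by their flesh counts. A gene qualified with at most 3 counts summed over the 3 wild-type flesh libraries, at least 5 counts in each of the 3 mutant flesh libraries, and a mean of at least 0.5 CPM in mutant flesh. CPM is a gene's count per 1e6 counts of its library. Genes whose identifiers carry the numbers 01 or 12 were left out by the rule, and 44 such genes met the count conditions. The difference between the lines in flesh is therefore how the genes were found, and flesh values are given as a description with no test. What the rule did not use is the skin of the same lines, and the genes themselves were tested only there. Flesh was tested only for genes listed beside them, which are not members, in the same libraries that the rule used.

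A storage root is a swollen root. Its flesh is mostly starch-filled parenchyma crossed by vascular tissue, and its skin is a periderm, the corky outer layer that seals the root and often carries anthocyanin pigment. Sweetpotato is hexaploid, so a gene is usually present in several closely similar copies, and a natural mutant of such a clonally propagated crop can differ from its parent in whole organs.

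Wild-type line M1-125 (WT) and its natural mutant (MT) were grown under the same normal treatment and sampled 120 days after planting. Flesh and skin of the storage root were read by RNA-seq, giving 3 libraries for each tissue of each line, 12 in all. The labels do not give the mutation or say whether the replicates of a group came from separate plants, so p-values measure the spread between these libraries. The series title places the comparison in a search for regulators of skin colour. Library totals ran from 15893593 to 20276417 counts in flesh and from 8507461 to 15065079 in skin. No source used here pairs the identifiers with gene names, so no gene has a named function and the tissue labels could not be checked against marker genes. Identifiers are printed without their shared start, Ibat.Brg_v3. The number that follows is taken to name a chromosome, the letter A to F a haplotype, and the last digits the gene order on it. No source states this, so it is an assumption. Reads from near-identical copies may be divided among them, so the level of any single identifier is uncertain.

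Over all 98 genes together, the WT flesh libraries held 42, 45 and 44 counts, and the MT flesh libraries held 3622, 3704 and 3154. As shares of the libraries these sums were 2.44, 2.22 and 2.35 CPM in WT flesh and 199.9, 202.9 and 198.4 CPM in MT flesh. The 3 libraries of each line lay close together. The rule caps WT flesh counts and asks for counts in every MT flesh library, so this closeness is partly built in. In skin the sums were 2186, 1993 and 2226 CPM for WT and 2309, 2443 and 2420 CPM for MT. As a group the genes were more abundant in the skin of both lines than in mutant flesh. One gene, 07DG006890, made up much of the skin sums, and without it they were 1166, 1067 and 1121 CPM in WT and 1337, 1394 and 1347 CPM in MT. In tissue pieces such as these, fewer cells of a type and less RNA per cell cannot be told apart.

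**Figure D1:**
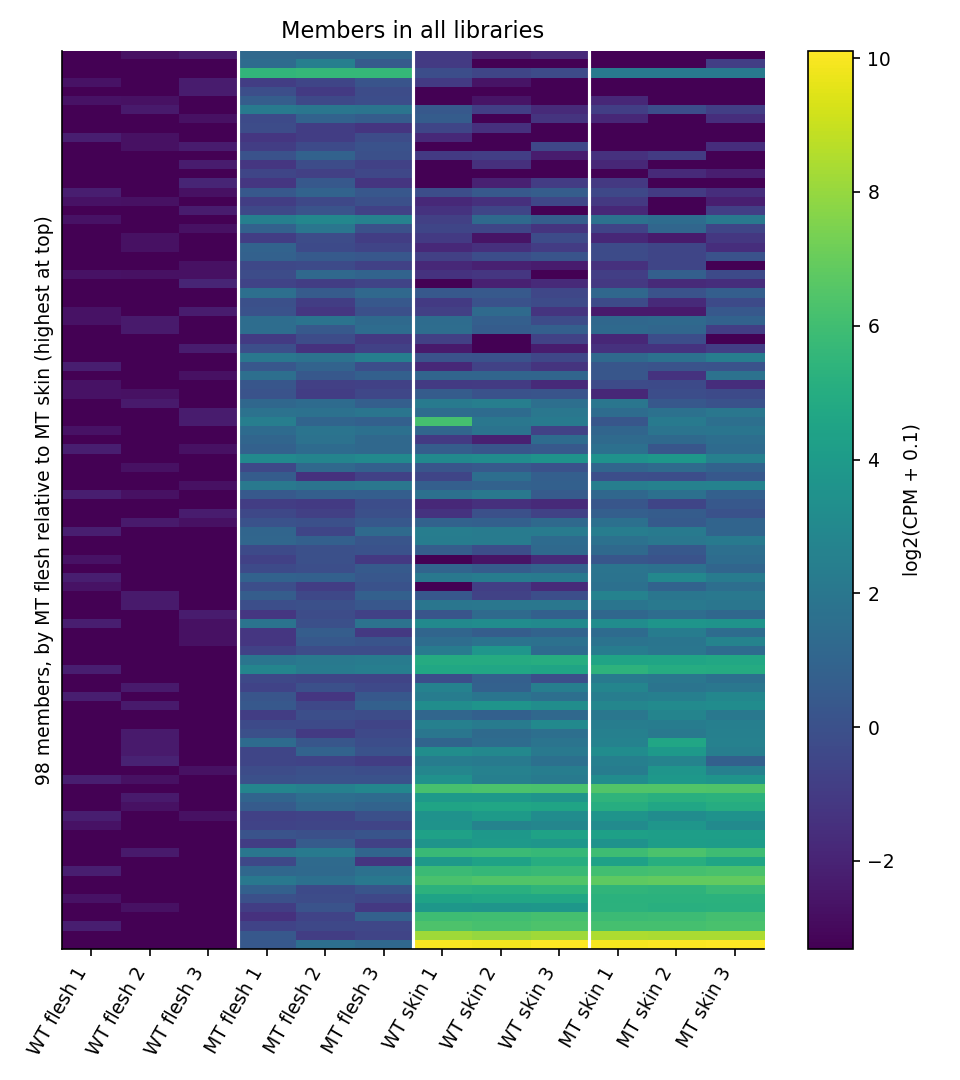
CPM of each of the 98 genes (rows) in each of the 12 libraries (columns, by group), with log2(CPM + 0.1) as colour and rows ordered by MT flesh relative to MT skin. The WT flesh columns are nearly empty by the rule, the MT flesh columns are filled by the rule, and most rows carry signal in both skins, where 61 genes met the count and CPM minimum.

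Most of the genes were weakly expressed in mutant flesh. The mean there ran from 0.508 to 47.8 CPM with a median of 0.964 CPM, 48 genes reached 1 CPM, 5 reached 5 CPM and 1 reached 10 CPM. The most abundant gene held 23.8% of the group's summed MT flesh level and the top 10 held 46.8%. The median coefficient of variation over the MT flesh libraries was 35.0%, and in 20 genes a single library held more than 50% of the MT flesh level. The highest library was MT flesh replicate 1 for 30 genes, replicate 2 for 40 and replicate 3 for 28. In WT flesh, 31 genes had no count in any library, 20 had 1, 30 had 2 and 17 had 3. Exchanging the lines in the same rule gave 45 genes, present in WT flesh and nearly without counts in MT flesh.

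The most abundant of the genes was 14DG014840. It had 0, 0 and 0 counts in WT flesh and 835, 888 and 772 counts in MT flesh, or 47.8 ± 1.46 CPM (SD, n = 3). Against a floor of 3 counts over the WT flesh libraries, its level in MT flesh was at least 895-fold higher. In skin it had 8, 9 and 7 counts in WT (0.705 ± 0.098 CPM, n = 3) and 49, 46 and 37 counts in MT (4.50 ± 0.128 CPM, n = 3). All MT skin libraries lay above all WT skin libraries, and mutant flesh exceeded both skins. Divided by gene length it also ranked first in MT flesh, at 21.5 CPM per kb.

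Of the other 9 genes with the highest MT flesh levels, 4 were mainly skin transcripts in both lines. Gene 04AG034630 had 125, 102 and 118 counts in MT flesh and none in WT flesh. In skin it had 756, 1171 and 732 counts in WT and 949, 889 and 723 in MT, or 76.1 ± 1.57 and 87.3 ± 1.99 CPM (n = 3 each). Its MT flesh level was 6.64 ± 0.947 CPM, below every skin library. Gene 04FG040220 stood at 5.57 ± 1.03 CPM in MT flesh, 24.3 ± 1.00 in WT skin and 34.7 ± 5.29 in MT skin. Gene 07DG012350 stood at 3.71 ± 0.605 CPM in MT flesh, 85.0 ± 7.03 in WT skin and 116.0 ± 4.55 in MT skin. Both had skin libraries in which the lines did not overlap, with MT the higher. Gene 07EG008300 was the exception in direction, with 307, 466 and 316 counts in WT skin and 246, 238 and 227 in MT skin. Its levels were 4.21 ± 0.570 CPM in MT flesh, 31.4 ± 1.33 in WT skin and 24.4 ± 1.98 in MT skin, so every MT skin library lay below every WT skin library.

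The remaining 5 of these genes had skin levels nearer to that of mutant flesh, or below it. Gene 07DG006910 had 149, 118 and 130 counts in MT flesh, 84, 140 and 112 in WT skin and 124, 140 and 48 in MT skin. Its means were 7.62 ± 1.00 CPM in MT flesh, 9.74 ± 1.72 in WT skin and 10.4 ± 4.26 in MT skin, and the MT skin libraries spanned both other groups. Gene 05AG001910 had 71, 59 and 87 counts in MT flesh (4.21 ± 1.15 CPM), 10, 14 and 6 in WT skin (0.847 ± 0.195 CPM) and 25, 31 and 43 in MT skin (3.49 ± 1.41 CPM). WT skin was thus the lowest of its 3 expressing groups, with no overlap with the others. Gene 02EG007650 had 75, 63 and 61 counts in MT flesh (3.81 ± 0.345 CPM), 16, 27 and 16 in WT skin (1.68 ± 0.108 CPM) and 57, 60 and 52 in MT skin (5.80 ± 0.420 CPM). These groups did not overlap either, and the order was MT skin, MT flesh, WT skin. Gene 03EG022590 had 6.29 ± 1.02 CPM in MT flesh, 1.42 ± 0.915 in WT skin and 3.30 ± 0.846 in MT skin. Gene 08BG018230 had 79, 69 and 55 counts in MT flesh (3.87 ± 0.456 CPM) and few in skin, 12, 7 and 2 in WT and 5, 8 and 4 in MT. Its skins overlapped, both lay below mutant flesh, and it had too few skin counts to be tested.

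**Figure D2:**
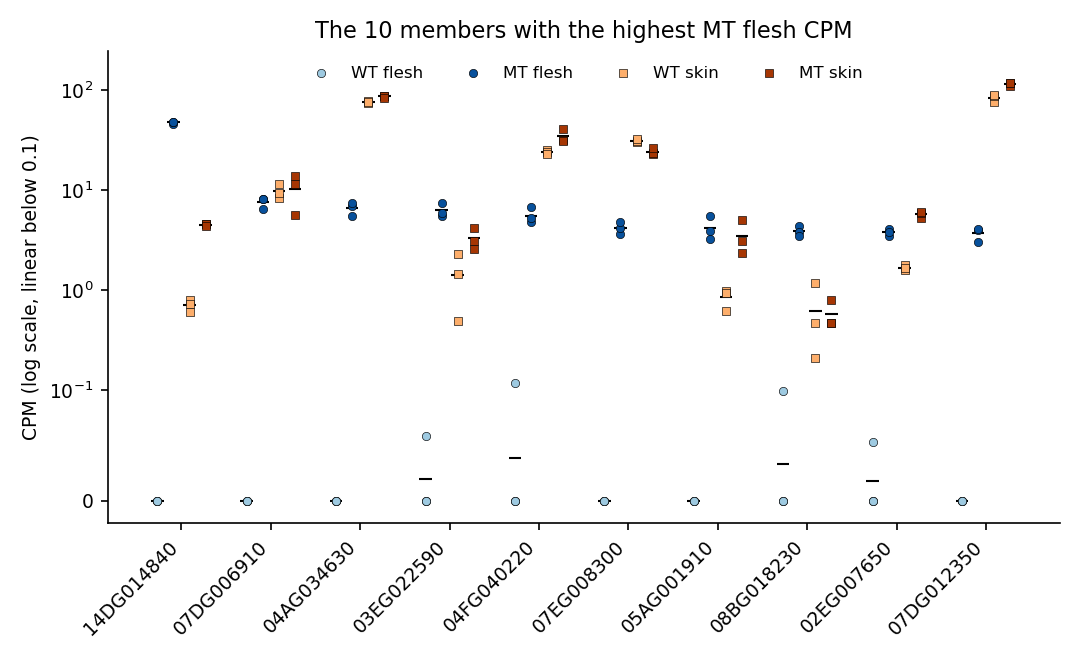
CPM of the 10 genes with the highest mean in MT flesh, by group, with 1 point per library, a short line for the group mean, and the axis linear below 0.1 and logarithmic above. MT flesh ranges from 3.71 CPM (07DG012350) to 47.8 CPM (14DG014840), while the skin levels of the same genes spread from under 1 to above 100 CPM.

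Since the rule left almost no counts in WT flesh, skin was the only sampled wild-type tissue in which the genes could be present. Using the MT flesh minimum for a skin group (5 counts in each library and a mean of 0.5 CPM), 65 of the 98 were present in WT skin, 69 in MT skin and 61 in both. A further 4 met it in WT skin only, 8 in MT skin only and 25 in neither. The median level was 1.71 CPM in WT skin, with a range of 0 to 1017, and 2.86 CPM in MT skin. Of the other 56819 genes that met the MT flesh conditions, 78.3% were present in WT skin and 73.0% in MT skin, against 66.3% and 70.4% of the 98. Since few of the 98 reached 5 CPM in MT flesh, the 93 below that level were set beside the 31433 others below it. These sets still differed in level, with medians of 0.946 and 1.73 CPM in MT flesh. The shares in WT skin were then 64.5% and 64.4%, and those in MT skin 68.8% and 55.8%.

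Levels in mutant flesh fell on both sides of those in mutant skin. The MT flesh mean was above the MT skin mean in 42 of the 98 (42.9%), against 68.1% of the other genes meeting the MT flesh conditions. It was under 10% of the MT skin mean in 19 (19.4%), against 1.67% of the others. Below 5 CPM these last shares were 19.4% and 2.40%. The rule had removed genes with counts in WT flesh, and these shares were not tested. All 3 MT flesh libraries lay above all 3 MT skin libraries in 22 genes and below them in 49. The median MT flesh level was 48.9% of MT skin over the 93 genes with MT skin counts.

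The extreme was 07DG006890, with 10336, 13942 and 10630 counts in WT skin and 10406, 10570 and 9126 in MT skin. It had 0, 0 and 0 counts in WT flesh and 22, 52 and 35 in MT flesh. These are 1017 ± 89.8 CPM in WT skin, 1031 ± 53.2 in MT skin and 2.09 ± 0.823 in MT flesh, so mutant flesh held 0.203% of the mutant skin level. To set this share beside other genes abundant in skin, 54 genes had at least 100 CPM in both skins and at most 3 counts over WT flesh. Only 2 of these were among the 98. The other 52 summed to 3.26, 3.89 and 2.33 CPM in the MT flesh libraries and to 0.465, 0.0986 and 0.481 CPM in the WT flesh libraries, against mean sums of 17141 CPM in WT skin and 13950 CPM in MT skin. Their highest MT flesh share of MT skin was 0.407%, and by the rule none of them could reach the MT flesh minimum. The part of skin RNA in the flesh levels of the 98 was not tested.

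**Figure D3:**
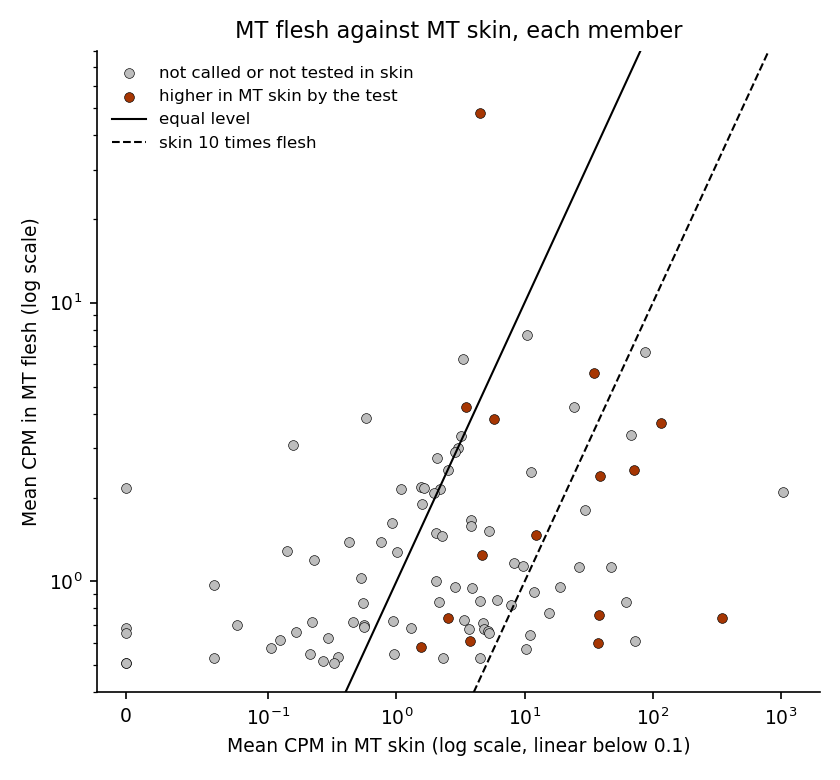
Mean CPM of each of the 98 genes in MT flesh (vertical, log scale) against MT skin (horizontal, log scale, linear below 0.1), with a solid line at equal level, a dashed line where skin is 10 times flesh, and genes called higher in MT skin coloured. Points spread on both sides of equality, with 42 genes higher in MT flesh and 19 genes at under 10% of their MT skin level.

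A few genes were nearly without counts in every tissue but mutant flesh. At most 3 counts over WT skin and at most 3 over MT skin were found for 4 genes, and 1 gene, 13BG006780, had 0 counts in all 6 skin libraries beside 15, 7 and 12 in MT flesh. Gene 06DG010960 had 26, 12 and 13 counts in MT flesh, 0, 1 and 0 in WT skin and 2, 0 and 0 in MT skin. Another 5 genes had at most 3 counts in MT skin and more in WT skin, and 2 had the reverse. Of the 5, chosen here after its values were seen, 09EG005360 had 41, 38 and 34 counts in MT flesh, 4, 2 and 2 in WT skin and 0, 0 and 0 in MT skin. Both of the 2 are given next. Gene 06AG017680 had 9, 16 and 6 counts in MT flesh, 0, 1 and 2 in WT skin and 12, 10 and 22 in MT skin. Gene 10FG018740 had 15, 5 and 8 counts in MT flesh, 1, 0 and 1 in WT skin and 3, 3 and 4 in MT skin. Neither of these had overlap between its skins, and the second rested on few counts throughout. The skin libraries were shallower than the flesh libraries, so a low level in skin was harder to detect.

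In skin, whose counts the rule did not use, the lines were compared with edgeR's quasi-likelihood test over all 58622 genes with enough counts. The labels do not say whether skin and flesh came from the same roots, so the tissues may not be independent. Of the 98, 65 were tested and 15 were higher in MT skin at an adjusted p of 0.05, which is 23.1% of those tested and 15.3% of all 98. Over all tested genes, including those numbered 01 and 12 that the rule bars, 4.17% were higher and 3.09% were lower. None of the 65 was lower by edgeR, where 2 were lower and 24 higher at an unadjusted p under 0.05. DESeq2 also called 15 higher and 0 lower, beside 2889 and 2165 of all 58622 tested genes. A missing call does not show that a gene was unchanged. The filter on low counts can let in a gene through the line where it is high. Of 58 members with at least 10 counts in 2 libraries of both lines 10 were called higher, and the other 5 calls were among 6 members that reached 10 counts in 2 libraries of MT skin alone. A split by counts only approximates the filter, which asks for a CPM level in enough libraries. Gene 05AG001910 was among the 10, but at 0.987, 0.929 and 0.624 CPM in WT skin it passed the filter through MT skin alone. All MT skin libraries lay above all WT skin libraries in 25 of the 65 and below them in 2. Over all tested genes 12.3% lay wholly above and 14% wholly below. The median log2 fold change of the tested members was 0.37, beside −0.0046 over all tested genes.

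The largest rises in skin were of weakly counted genes. The 3 genes described next reached 10 counts in 2 libraries of MT skin but not of WT skin, so they entered the test through the line where they were high. Gene 06AG017680 rose by 4.01 on the log2 scale (SE 0.91, adjusted p = 0.0241 by edgeR), and with any 1 skin library left out the rise was 3.46 to 4.996 and the adjusted p 0.0544 to 0.137. Gene 03CG025430, with 0, 7 and 2 counts in WT skin and 32, 18 and 24 in MT skin, rose by 3.34 (SE 0.75, adjusted p = 0.0222 by edgeR), with a rise of 2.84 to 4.49 and adjusted p of 0.0339 to 0.0961 on leaving out 1 library. Both had no overlap between the lines. The first lost its call whichever library was left out and the second in 4 of 6 cases, while the rises stayed large. The most abundant flesh gene, 14DG014840, rose by 2.69 (SE 0.39, adjusted p = 0.00181 by edgeR), with adjusted p of 0.009 to 0.0133 on leaving out 1 library.

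Among the other top flesh genes, 4 rose in MT skin. Gene 05AG001910 rose by 2.04 (SE 0.47, adjusted p = 0.025 by edgeR) and 02EG007650 by 1.80 (SE 0.31, adjusted p = 0.00533). The former also entered the test through MT skin, where it was high. The rises of the skin-abundant genes were smaller, 0.54 for 04FG040220 (SE 0.13, edgeR adjusted p = 0.0301) and 0.47 for 07DG012350 (SE 0.08, edgeR adjusted p = 0.00412). The calls of 05AG001910 and 04FG040220 were each lost in 5 of 6 fits that left out 1 library, with adjusted p up to 0.111, while the rises were 1.68 to 2.27 and 0.41 to 0.62. That of 04FG040220 was also lost with all 12 libraries fitted together, where its adjusted p was 0.0996 in a range of 0.00321 to 0.0996 over the settings that kept all skin libraries. Gene 07EG008300 had a log2 fold change of −0.34 (SE 0.12) and did not pass the test (edgeR adjusted p = 0.127). For 07DG006890 the value was 0.05 (SE 0.06) and for 07DG006910 it was 0.12 (SE 0.31), neither past the test. Of the 15 calls, 7 were made in all 6 fits that left out 1 skin library. Without MT skin replicate 2 only 8 of 69 members were called higher, beside 1622 of 63013 genes. One further gene was singled out after its values were seen. Gene 07BG010280 had 724, 60 and 44 counts in WT skin against 12, 45 and 25 in MT skin, a log2 fold change of −3.20 (SE 1.03) with an edgeR adjusted p of 0.101, and WT skin replicate 1 stood apart.

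**Figure D4:**
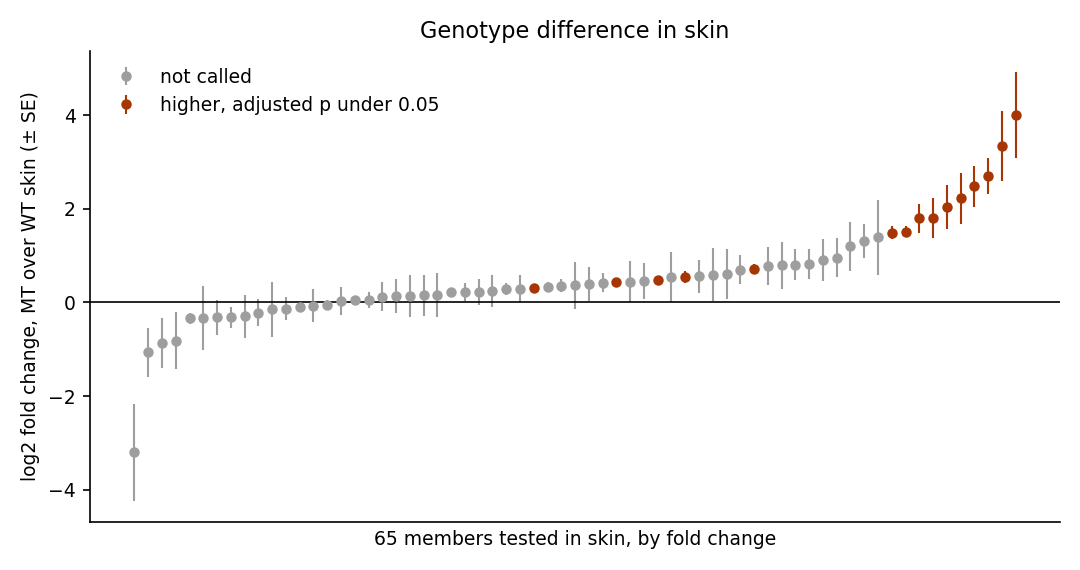
Log2 fold change of MT over WT skin (vertical, bars ± SE from edgeR) for the 65 members that were tested, in order of fold change. The 15 called higher at an adjusted p of 0.05 are coloured, no member is called lower, the median is 0.37, and the lowest point, 07BG010280 at −3.20, was not called.

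Some of the genes were neighbours by identifier. With at most 2 listed genes between them there were 4 pairs, of which 3 were adjacent. In the pair 04CG007290 and 04CG007300, MT flesh held 11, 34 and 15 counts and 14, 16 and 13 counts. The pair 06DG004320 and 06DG004330 had 23, 29 and 24 and 36, 11 and 38. The pair 07AG006130 and 07AG006140 had 9, 10 and 14 and 67, 79 and 32. Each pair was also found in both skins, and none of these 6 genes passed the skin test. The fourth pair was 07DG006890 and 07DG006910, described above, with 1 listed gene between them.

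Of the tested genes listed next to one of the 98, 26 of 72 were also higher in mutant flesh. These neighbours, taken within 5 places on each side, are not members, and they were looked at after earlier values had been seen. They were tested in the same flesh libraries that chose the members, so their calls are not independent of the rule. Whether adjacent genes shared reads was not tested. Of 929 neighbours 342 were tested between the lines in flesh with edgeR's quasi-likelihood test, and 60 (17.5%) were higher in MT flesh and 8 (2.34%) lower. Over all 70379 tested genes that are not members, 5% were higher and 2.69% lower. Scaled by library totals alone, which put the median log2 fold change of these genes at −0.11 in place of −0.0082, 56 neighbours (16.4%) were higher and 15 (4.39%) lower, beside 3.98% and 4.73% of all. By distance in the listing, the share called higher was greatest at 1 place and smallest at 5. It was 36.1% of 72 tested neighbours at 1 place, 21.5% at 2, 22.1% at 3, 12.7% at 4 and 2.63% at 5, where a gene near several members counts at each distance.

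Seen from the members, 21 of 97 (21.6%) had an immediate neighbour that was higher in MT flesh. Among 2659 other genes that were themselves higher in MT flesh the share was 12.8%, and among 56126 other genes meeting the MT flesh conditions it was 4.59%. Within 5 places the 3 shares were 35.1% (34 of 97), 31.3% and 17.8%, so over the wider window the members stood close to the other genes higher in MT flesh. These differences were not tested. The higher neighbour was usually the more abundant gene. In 24 of 26 such pairs it exceeded the member per length in MT flesh, in 19 by 10-fold or more, with a median ratio of 25.01 over the 26. The selection favours this, since most members were weakly expressed and a neighbour needed enough counts to be tested and called. No such ratio was taken for other genes.

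The neighbours of 05AG001910, the gene described above that was also higher in MT skin, are among the larger of these differences. Over the 60 neighbours called higher the log2 fold change ran from 0.25 to 6.78, with a median of 3.04 and a middle range of 1.73 to 4.27. Gene 05AG001900 went from 8.22 ± 1.97 CPM in WT flesh to 312.2 ± 13.3 in MT flesh (n = 3 each), a log2 fold change of 5.35 (SE 0.15, edgeR adjusted p = 8.98e-08). On the other side, 05AG001920 went from 4.56 ± 0.947 to 199.1 ± 10.9 CPM, a log2 fold change of 5.54 (SE 0.13, edgeR adjusted p = 3.43e-08). In the flesh libraries that chose it, the member between them thus sat between a pair of genes far higher in mutant flesh. Gene 07DG012360, beside 07DG012350, went from 1.83 ± 0.330 to 187.0 ± 10.4 CPM (log2 fold change 6.78, SE 0.11, edgeR adjusted p = 5.32e-09). At 04CG007290 and 04CG007300, the adjacent 04CG007310 went from 11.03 ± 0.641 to 159.4 ± 22.1 CPM (log2 fold change 3.95, SE 0.12, edgeR adjusted p = 1.37e-07). In all, 7 of 97 members (7.22%) had 3 or more higher neighbours within 5 places, against 3.54% of the other genes higher in MT flesh and 0.583% of the others meeting the MT flesh conditions. Of these 7, 04CG007290 and 04CG007300 are adjacent and share the same 4 higher neighbours. How reads running past a gene's end were counted, and with which strand setting, is not given in the sources used here. The part of either in these levels was not tested.

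**Figure D5:**
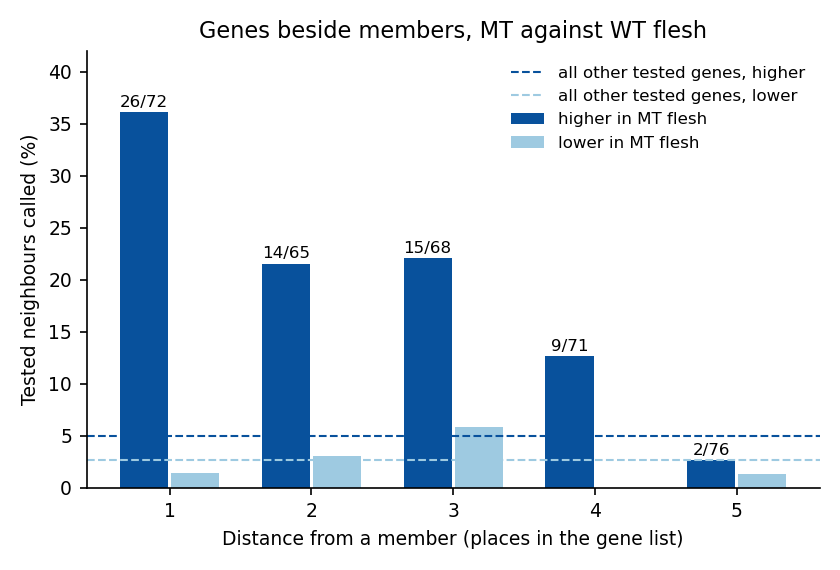
Percent of tested neighbouring genes called higher (dark bars, with counts of called over tested) or lower (light bars) in MT flesh by edgeR, by distance from a member in the listing, with dashed lines for all tested genes that are not members (5% higher, 2.69% lower). The dark bars stand at 36.1% at 1 place and 2.63% at 5 places.

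The genes were scattered over the numbered blocks. Number 04 held the most, 16, followed by 06 and 07 with 11 each, and 14 held 1. These 16 were 16.3% of the 98, where number 04 held 10.2% of the genes meeting the MT flesh conditions, and for number 14 the shares were 1.02% and 6.70%. Letter D held 22 of the 98 (22.4%, against 15.8% of the genes meeting the MT flesh conditions), and the other letters held 12 to 17. The median listed length was 1278.5 bases, with a range of 213 to 4710, shorter than the 1828 bases of all genes meeting the MT flesh conditions.

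At the edge of the rule, 17 members had exactly 3 WT flesh counts, and 34 genes that met the other conditions fell just outside with 4. The first of the 17 by identifier, 02DG014730, had 2, 1 and 0 counts in WT flesh and 6, 8 and 12 in MT flesh. At 0.508 CPM it was also nearest to the level minimum. Just outside, 02AG009130 had 2, 2 and 0 counts in WT flesh and 12, 14 and 14 in MT flesh. At the minimum of 5 counts, 06AG018490 with 12, 44 and 5 was inside and 02AG007340 with 6, 17 and 4 was outside. At the level minimum, 05FG021800 with 7, 11 and 8 counts and 0.497 CPM fell outside. The number of members also shifted when a flesh library was left out and the limits were kept unchanged. Leaving out WT flesh replicate 1, 2 or 3 gave 176, 211 or 198 members, and leaving out MT flesh replicate 1, 2 or 3 gave 137, 144 or 138. The same limits over fewer libraries are looser, and leaving out a WT flesh library can only add members. These counts therefore do not show that membership depended on any single library.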

How the data were processed

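Raw counts per gene and library, as deposited by the authors, were used with their gene lengths. The submitters' processing notes name featureCounts, HISAT2 2.0.5 and DESeq2 1.40.2 without saying what each did. Genome build, annotation and strand setting were not given in the sources used here. Per the labels' protocols, ribosomal RNA was removed and polyadenylated RNA enriched. Library totals ran from 8507461 to 20276417 counts. The gene table at hand (assembly IBA_r1.0, 175826 entries) matched 0 identifiers, so no names or sequences are given.

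Levels are CPM of library totals. A fold against 0 counts uses a floor of 3 counts over the group, and covers counting error only. MT and WT skin were compared over the 6 skin libraries with edgeR 4.0.16 in R 4.3.3: filterByExpr (minimum count 10), TMM scaling, and the quasi-likelihood test with p-values adjusted by Benjamini-Hochberg and a threshold of 0.05. Flesh libraries were fitted likewise, for neighbouring genes only. The SE is the absolute log2 fold change divided by the square root of F, an approximation. The scripts were tested on simulated data with a spread set in advance, so the shares found may not hold for the real libraries. In skin the test recovered 21 of 100 genes changed 2-fold and 97 of 99 changed 4-fold. In flesh it recovered 40 of 100 and 100 of 100. Alternatives were DESeq2 1.42.0, other scalings, no filter, all 12 libraries, a replicate block, each library left out, and other rule thresholds.

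The members, neighbours and comparisons were chosen with earlier results of these data known. Named genes are the 10 highest in MT flesh; the 2 largest skin changes past the test in each direction with no overlap; the 2 highest in MT flesh with at most 3 counts in each line's skin, or in WT skin only; those at the rule's edges; and members of neighbouring runs. Others were chosen after their values were seen.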

Additional observations from a re-analysis of the deposited data

Results flagged for a closer look

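Gene 07EG008300 was flagged, in a look at the named genes only, because its skin pointed the other way from the flesh rise that chose it. In flesh it had 0 counts in every WT library and 66, 77 and 76 in MT, which is how it was chosen, while in skin every MT library lay below every WT library, with a log2 fold change of −0.336 that did not pass edgeR's test (adjusted p = 0.127). The adjusted p ran from 0.118 to 0.317 over the fits that left out 1 skin library and from 0.0932 to 0.198 over the other settings. All MT skin libraries lay below all WT skin libraries in 2 of the 65 tested members, beside 14% of all tested genes. The difference between the tissues was not tested.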

How the results depend on the processing

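Library totals, DESeq2 size factors and DESeq2 itself each called 15 of 65 tested members higher in MT skin. Over all 58622 tested genes they called 2197, 2442 and 2889 higher. All 12 libraries together called 12 of 83 members, beside 2923 of 80351 genes. No filter called 17 of 97 members. Without the filter 1 member was lower, and over all genes 4064 were higher and 3849 lower, among 131719 tested. Leaving out 1 skin library gave 8 to 11 members higher, and over all genes 1409 to 1726 higher and 1031 to 1251 lower, with fewer samples. DESeq2 gave no adjusted p for 06AG017680. Same-numbered skin libraries did not deviate together over all tested genes (correlations −0.0021, −0.0029 and −0.0052). With 3 libraries per group and many low counts, this check cannot exclude pairing. The replicate block called 12 members higher and 0 lower, beside 2019 and 1474 of all 58622 genes. Its edgeR adjusted p was 0.0653 for 05AG001910 and 0.0545 for 03CG025430. Neighbours lower in MT flesh numbered 15 with library totals and 4 to 8 on leaving out 1 flesh library. Higher ones numbered 50 to 61 over all alternatives, 53 with the replicate block, among 342 to 357 tested. Shares over all genes that are not members were taken for 2 fits only. They were 5% higher and 2.69% lower in the main fit, and 3.98% and 4.73% with library totals.

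The rule's thresholds set its size. There were 31 members with 0 WT flesh counts, of which 23 were present in WT skin and 25 in MT skin. With at least 1 CPM there were 48, of which 38 and 39 were present. Of these, 9 of 37 tested were called higher in MT skin, beside 4.17% of all tested genes. With at least 10 counts in each MT flesh library there were 56. Leaving out 1 flesh library, with the limits unchanged and so looser, gave 137 to 211 members. Of these, 71 to 107 were present in WT skin and 75 to 110 in MT skin. On leaving out 1 skin library the sign turned in 19 of the 65 tested members, none of which was called. For the 6 named among them the log2 fold changes ran from −0.16 to 0.65 for 04CG007300, −0.0166 to 0.57 for 06AG018490, −0.62 to 0.0911 for 06DG004320, −0.30 to 0.11 for 07AG006130, −0.0211 to 0.12 for 07DG006890 and −0.14 to 0.41 for 07DG006910. Depth limits the low genes most, since 33 members had too few skin counts to be tested.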

Other observations

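Low counts were uneven in all 12 libraries. More genes had exactly 2 counts than 1, by 1.38 to 1.63 times, and more had 4 than 3, by 1.38 to 1.66 times. In WT flesh replicate 1, for example, 10235 genes had 2 counts and 7018 had 1. Of the 294 WT flesh values of the 98 genes, 209 were 0, 42 were 1, 40 were 2 and 3 were 3. The cause was not tested, and a limit of 3 counts treats counts as independent.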
